A study of Homo sapiens with 12 samples.

Results

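Interferon-stimulated genes are the genes that cells switch on when they sense interferon. A list of 44 of them was followed through RNA sequencing of IMR90, a normal diploid fibroblast line from human lung. The members were taken by gene symbol, and all 44 had a gene ID among the 48162 IDs of the deposited tables and at least 1 count. There were 4 groups of 3 libraries each. In RAS/shDOT1L cells, which expressed HRAS G12V, DOT1L was knocked down with 1 short hairpin RNA. RAS cells expressed HRAS G12V, the oncogene that drives these fibroblasts into senescence. DOT1L OE cells overexpressed human DOT1L, a methyltransferase of histone H3. Control cells were IMR90 cells that, per the study's methods, carried empty vector. All groups came from the same cell line, were grown in 2% oxygen and were drug selected for 4 days. The drug was puromycin at 3 µg/mL in RAS/shDOT1L, RAS and control cells and blasticidin at 1 µg/mL in DOT1L OE cells. In DOT1L OE against control and in RAS against DOT1L OE, drug and transgene therefore cannot be told apart. The labels do not say whether RAS and control libraries carried a control hairpin, and they give no harvest time.

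Interferons bind receptors that signal through Janus kinases to transcription factors. Type I interferon brings STAT2 and IRF9 into a complex that binds a DNA element called the ISRE, whereas type II interferon acts mainly through an element called GAS. The genes switched on in this way include sensors of foreign RNA, proteins that block entry, translation or replication of viruses, the ubiquitin-like protein ISG15 with its enzymes, and factors of the pathway itself. Many are also transcribed at a low level without added interferon, and interferon signaling has been described in senescent fibroblasts.

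The label check held. DOT1L stood at 11.0 CPM (counts per 1000000 of the scaled library total) in RAS/shDOT1L, 84.5 in RAS, 202 in DOT1L OE and 31.7 in control cells (means of 3 libraries). HRAS averaged 276 CPM in RAS/shDOT1L and 503 CPM in RAS cells, so HRAS also differed between these groups (log2 change -0.85 ± 0.05, edgeR adjusted p = 3.87e-16), and its part in the results below was not tested. It averaged 79.4 CPM in DOT1L OE and 86.0 CPM in control cells. Library totals ran from 16128055 to 19503457 counts. The 11 fibroblast markers, COL1A1 and COL1A2 foremost, summed to 17500 to 18300 CPM in RAS/shDOT1L, 16900 to 17400 in RAS, 18100 to 19100 in DOT1L OE and 22200 to 22500 in control libraries. The 14 immune cell markers summed to 2.13 to 5.30 CPM in RAS/shDOT1L, 6.50 to 7.22 in RAS, 2.11 to 2.29 in DOT1L OE and 1.65 to 2.53 in control libraries, with PTPRC, the marker of all white blood cells, at 0 to 10 counts per group and MS4A1, ITGAM and LILRA4 at 0 in all 12 libraries. The 5 endothelial markers in the files summed to 23.5 to 28.8 CPM, 60.5 to 65.5 CPM, 134 to 147 CPM and 63.9 to 69.9 CPM in the groups in that order, and the 7 epithelial markers to at most 19.1 CPM in any library. Most of the endothelial sum was TEK, which averaged 23.5, 61.1, 129 and 67.1 CPM in the same order. KDR averaged 11.6 CPM in DOT1L OE cells, VWF at most 1.26 CPM in any group, and CDH5 and ERG had at most 5 counts per group. The part of these marker differences in the results was not tested. In bulk RNA, fewer cells of a type and less RNA per cell cannot be told apart.

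Of the 44 members, 34 had a start in the RefSeq promoter table (GRCh38.p14, 250 bases before to 50 after the start); GBP2, IFITM2, TRIM22, OASL, OAS2, IRF7, USP18, IFIT2, DHX58 and MX2 had none. The letters GAAANNGAAA, the core of the ISRE, were searched on both strands. They occurred in 24 of the 34 members (70.6%), against 4.38% of the 27305 gene symbols with a promoter in that table. The letters TTCNNNGAA, the core of the GAS element, occurred in 11 of the 34 (32.4%), against 9.38%. These shares describe what the list has in common and do not show binding in these cells. The stretches below are shown because their genes carry the main results: GBP1, SAMD9, PARP9 and EPSTI1 were low in RAS cells, PLSCR1, IFIT3 and OAS3 were high in DOT1L OE cells, ISG20 was high in both, IFI6 was low in DOT1L OE cells, and ISG15 names the ubiquitin-like protein of the response. They run 5′ to 3′ on the strand of the gene, end before the transcription start, and carry the ISRE core in capitals.
GBP1 (chr1:89065311-89065350, minus strand): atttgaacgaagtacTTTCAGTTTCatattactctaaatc
SAMD9 (chr7:93118091-93118130, minus strand): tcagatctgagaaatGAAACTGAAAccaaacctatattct
PARP9 (chr3:122564317-122564356, minus strand): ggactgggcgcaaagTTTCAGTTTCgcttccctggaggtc
EPSTI1 (chr13:42992267-42992306, minus strand): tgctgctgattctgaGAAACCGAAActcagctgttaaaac
PLSCR1 (chr3:146544662-146544701, minus strand): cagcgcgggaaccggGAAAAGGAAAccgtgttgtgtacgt
IFIT3 (chr10:89327826-89327899, plus strand): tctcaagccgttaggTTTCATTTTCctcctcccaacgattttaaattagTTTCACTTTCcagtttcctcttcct
OAS3 (chr12:112938447-112938473, plus strand): cggagagccgggcggGAAAACGAAAcc
ISG20 (chr15:88638932-88638971, plus strand): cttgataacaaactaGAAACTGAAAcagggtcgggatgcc
IFI6 (chr1:27672261-27672363, minus strand): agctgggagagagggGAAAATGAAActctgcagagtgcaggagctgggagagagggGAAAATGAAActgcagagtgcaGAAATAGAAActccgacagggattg
ISG15 (chr1:1013369-1013414, plus strand): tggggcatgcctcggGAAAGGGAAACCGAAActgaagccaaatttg
IFI6 held 3 cores, IFIT3 held 2 and ISG15 held a pair that overlap. OAS3 held a second core farther from its start that is not shown. SAMD9L, SP100, STAT2 and UBE2L6 were among the 10 members without these letters in the window. The core was found among members that moved either way: in RAS against control, 8 of 10 members called lower with a promoter in the table held it, as did 3 of 5 called higher and 10 of 12 that were not called.

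Levels spanned a wide range. Per kilobase of transcript, IFITM3, which blocks virus entry at endosomal membranes, stood highest in all 4 groups, at 749 CPM per kb in RAS and 687 CPM per kb in control cells. In control cells ISG15, IFITM2 and IFI6 came next, at 88.5, 87.3 and 73.8 CPM per kb, and TRIM22 and GBP1 followed at 40.6 and 37.3. In RAS cells TRIM22 and GBP1 stood at 6.99 and 6.76 CPM per kb. At the other end, 9 members averaged under 1 CPM in every group: IRF9, DHX58, OAS1, OAS2, MX2, BST2, RSAD2, XAF1 and IFI44L. Several of these are among the genes that respond most strongly to added interferon, such as the virus inhibitor RSAD2. The level of IRF9 is uncertain, because it shares 1544 exon bases with another gene on the same strand. A mean of at least 1 CPM in every group was reached by 26 members and of at least 10 CPM by 12. The summed level of the 44 was 1170 to 1320 CPM in RAS/shDOT1L, 1080 to 1120 CPM in RAS, 997 to 1020 CPM in DOT1L OE and 1260 to 1300 CPM in control libraries, a sum in which IFITM3 took the largest share. For members of at least 5 CPM, the coefficient of variation within a group had a median of 8.68% to 9.92%, and its highest value was 32.8%, for IRF7 in RAS cells.

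**Figure D1:**
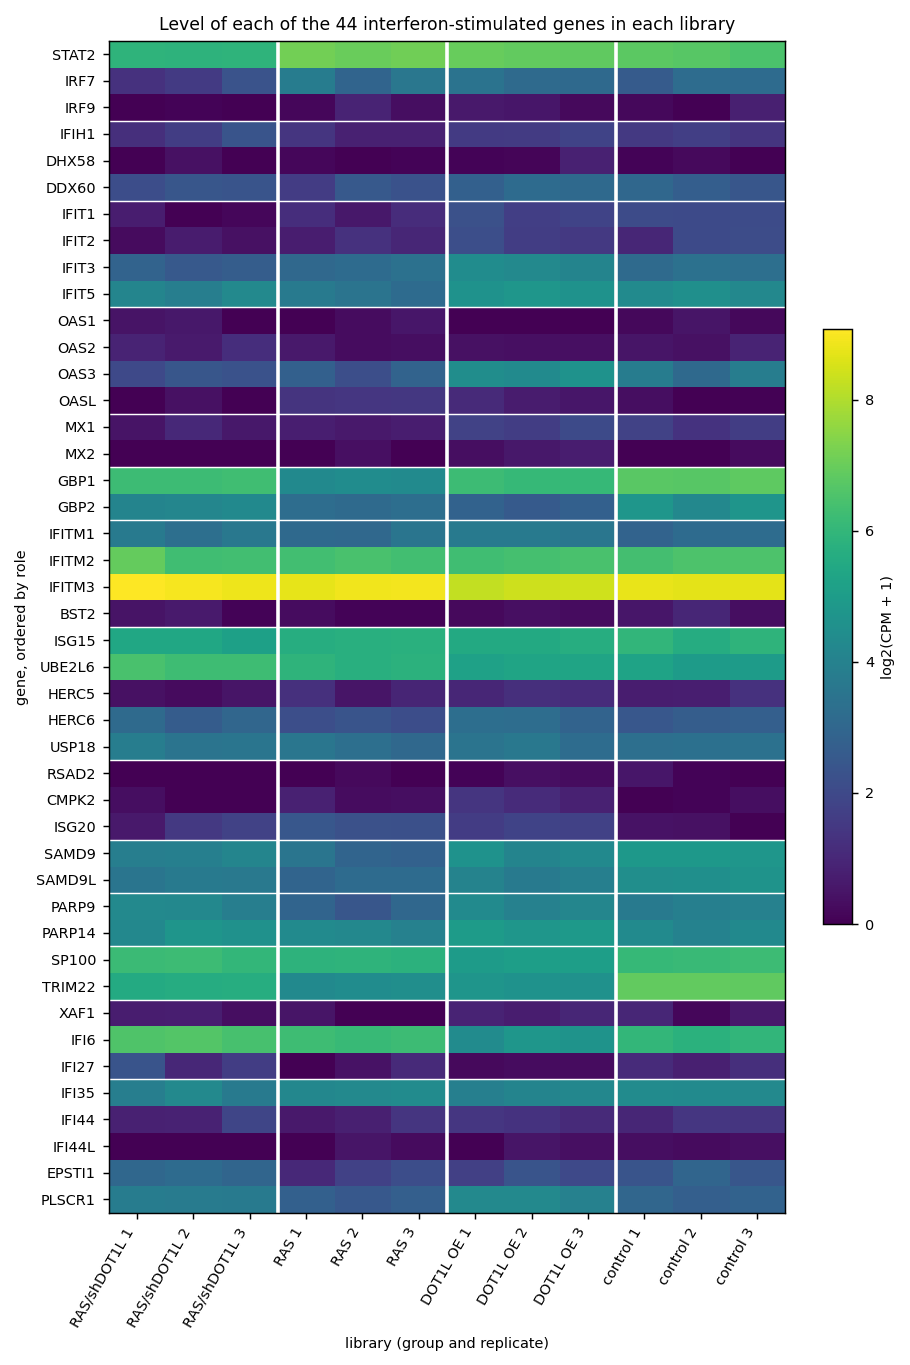
Level of each of the 44 interferon-stimulated genes (rows, ordered by role) in each of the 12 libraries (columns, by group), as log2(CPM + 1). IFITM3 is brightest in every library, TRIM22 and GBP1 are dimmer in the 3 RAS libraries than in the 3 control libraries, and 9 genes average under 1 CPM in every group.

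The first comparison asks what oncogenic RAS changed. The genes split: antiviral effectors such as GBP1, TRIM22, SAMD9, SAMD9L and OAS3 were lower in RAS cells by 2.15-fold to 5.81-fold, whereas STAT2, UBE2L6 and the low-level genes OASL and ISG20 were higher. Of the 34 members tested, 13 were lower and 7 higher (edgeR quasi-likelihood test, adjusted p under 0.05), a share of 58.8%, while 64% of all 13554 genes tested were called, so members were not called more often than other genes. By direction, 38.2% of members and 32% of all genes were lower, and 20.6% of members and 31.9% of all genes were higher. At a change of over 1.5-fold, 13 members were called while 26.9% of all genes were: 10 were lower (29.4%, against 13.6% of all genes) and 3 higher (8.82%, against 13.4%). The 3 libraries of each group did not overlap in 18 members, 13 lower and 5 higher (52.9%), and in 67.8% of all genes (34.3% lower and 33.5% higher). The median log2 change was -0.39 over the members and -0.04 over all genes. Scaled by library size alone, all genes had a median of -0.24 and the members split into 17 lower and 4 higher. With an offset for transcript GC content they split into 15 lower and 4 higher. The shares of all genes called under these settings are not given here, so these splits do not set the members apart from other genes.

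Among the transcription factors, STAT2 had 141, 126 and 135 CPM in RAS libraries, against 110, 104 and 88.6 CPM in control libraries. All RAS libraries were above all control libraries (1.33-fold, log2 change 0.41 ± 0.07 SE, adjusted p = 3.95e-06). IRF7, which amplifies interferon production, had 13.1, 6.55 and 11.2 CPM in RAS and 5.11, 8.25 and 7.95 CPM in control libraries. These overlapped, and its rise (log2 change 0.53 ± 0.23, adjusted p = 0.0416) did not survive the GC offset (-0.10 on the log2 scale, adjusted p = 0.753) and without any of 4 single libraries (control 1, control 3, RAS 1 or RAS 3, adjusted p 0.0601 to 0.261). IRF9, the DNA-binding partner of STAT2, stayed at or under 0.849 CPM in every library of the series and was not tested. It shares 1544 exon bases with another protein-coding gene on the same strand. How reads that fit both genes were counted was not checked, so these low values may not reflect the level of IRF9.

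The guanylate-binding proteins, GTPases that attack membranes of intracellular pathogens, were both lower. GBP1 had 18.6, 20.5 and 19.4 CPM in RAS libraries, against 107, 105 and 111 CPM in control libraries. The groups were far apart (5.53-fold lower, log2 change -2.47 ± 0.08, adjusted p = 4.71e-23). GBP2 had 8.53, 7.88 and 8.69 CPM in RAS libraries, against 26.3, 17.7 and 25.3 CPM in control libraries. Here, too, no RAS library reached a control library (2.77-fold lower, log2 change -1.47 ± 0.16, adjusted p = 1.30e-09). Of the 6 further genes of this family and its relative IRGM, only GBP3 had enough counts to be tested. It was lower as well, at 5.66, 2.12 and 5.11 CPM in RAS and 24.4, 23.5 and 25.0 CPM in control libraries (log2 change -2.50 ± 0.21, adjusted p = 1.88e-12). These genes are similar in sequence, and how reads that fit several of them were counted was not checked, so the split between them is uncertain.

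TRIM22, a tripartite-motif protein that restricts several viruses, changed most among members of at least 5 CPM. It had 18.9, 20.4 and 21.3 CPM in RAS libraries, against 118, 119 and 115 CPM in control libraries (5.81-fold lower, log2 change -2.54 ± 0.08, adjusted p = 1.07e-23). SP100, a component of nuclear bodies, differed little: 57.4, 59.3 and 55.2 CPM in RAS and 66.0, 70.1 and 73.4 CPM in control libraries (log2 change -0.29 ± 0.07, adjusted p = 0.00134). That small fall was lost with the GC offset, where the log2 change was 0.081 (adjusted p = 0.383).

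SAMD9 and SAMD9L, neighboring genes on chromosome 7 whose proteins inhibit translation and restrict poxviruses, were lower to a like degree. SAMD9 had 10.6, 6.67 and 6 CPM in RAS libraries, against 27.7, 27.3 and 25.9 CPM in control libraries (3.47-fold lower, log2 change -1.79 ± 0.17, adjusted p = 2.87e-11). SAMD9L had 6.62, 7.94 and 7.98 CPM in RAS libraries, against 21.1, 22.0 and 24.5 CPM in control libraries (3.00-fold lower, log2 change -1.59 ± 0.15, adjusted p = 8.81e-11). Neither gene's groups overlapped. Both have transcripts poor in GC (36% and 38.5%), and with the GC offset their log2 changes were -1.15 and -1.04, still past the test (adjusted p = 5.80e-07 and 7.88e-07).

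PARP9, which acts with its partner DTX3L in histone modification, had 6.68, 4.42 and 7.09 CPM in RAS libraries, against 12.3, 14.1 and 14.8 CPM in control libraries (2.27-fold lower, log2 change -1.18 ± 0.19, adjusted p = 2.97e-06). PARP14 showed no detectable change (log2 change -0.04 ± 0.14, adjusted p = 0.843). PARP9 shares 139 exon bases with DTX3L on the opposite strand, and since the strand setting of the counts is not stated, their reads cannot be fully told apart. DTX3L, named for that overlap after its values were seen, was also lower (log2 change -0.98 ± 0.13, adjusted p = 7.44e-08).

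The IFIT proteins bind foreign RNA and block its translation. IFIT5 had 12.1, 10.3 and 8.05 CPM in RAS libraries, against 19.5, 21.8 and 17.9 CPM in control libraries (1.94-fold lower, log2 change -0.95 ± 0.16, adjusted p = 4.05e-06), and with the GC offset the log2 change was -0.38 (adjusted p = 0.0482). IFIT1 averaged 0.983 CPM in RAS and 3.18 CPM in control cells (log2 change -1.69 ± 0.45, adjusted p = 0.00160). IFIT2 averaged 1.02 CPM in RAS and 2.48 CPM in control cells, with overlapping libraries (adjusted p = 0.0341), a call lost without control 2, control 3, RAS 1 or RAS 3 (adjusted p 0.0699 to 0.193). IFIT3 showed no detectable change (log2 change -0.07 ± 0.20, adjusted p = 0.753).

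The OAS enzymes make the messenger that activates RNase L. OAS3 had 5.96, 3.52 and 6.32 CPM in RAS libraries, against 13, 7.50 and 13.5 CPM in control libraries. All RAS libraries were below all control libraries (2.15-fold lower, log2 change -1.11 ± 0.23, adjusted p = 0.000120). OASL, a relative without that enzyme activity, went the other way at a low level: 1.55, 1.70 and 1.79 CPM in RAS libraries, against 0.258, 0.00 and 0.0503 CPM in control libraries (log2 change 3.93 ± 0.83, adjusted p = 0.000123). The size of this rise is loosely fixed, since the control libraries held few counts, and it was 5.67 on the log2 scale without control 1. MX1, a GTPase that traps viral nucleocapsids, averaged 0.633 CPM in RAS and 2.05 CPM in control cells (log2 change -1.69 ± 0.56, adjusted p = 0.00940), and lost its call without control 1 (adjusted p = 0.0603).

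In the ISG15 system, UBE2L6, the conjugating enzyme that loads ISG15, had 58.7, 51.3 and 56.4 CPM in RAS libraries, against 37.0, 30.5 and 30.4 CPM in control libraries (1.70-fold higher, log2 change 0.77 ± 0.10, adjusted p = 2.41e-08). ISG15 itself had 49.7, 51.7 and 53.2 CPM in RAS and 62.4, 48.5 and 58.2 CPM in control libraries, which overlapped (log2 change -0.13 ± 0.09, adjusted p = 0.198). Its transcript is rich in GC (64.2%), and the GC offset moved the log2 change to -0.73 (adjusted p = 3.18e-08). ISG15 was also called lower when scaled by library size alone (log2 change -0.33, adjusted p = 0.00164) and without control 2 (-0.23, adjusted p = 0.0286). The call and the size of the change therefore hang on the setting, while the direction was the same in these fits. The ligases HERC5 and HERC6 and the protease USP18, which removes ISG15 and dampens receptor signaling, were not called.

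Of the restriction factors at membranes, IFITM3 averaged 458 CPM in RAS and 420 CPM in control cells (log2 change 0.12 ± 0.04, adjusted p = 0.0124), with overlapping libraries. This rise turned into a lower value with the GC offset (-0.32 on the log2 scale) and with scaling by library size alone (-0.075), and it lost its call without control 3, RAS 2 or RAS 3 (adjusted p 0.0582 to 0.0876). IFITM1 and IFITM2 were not called. The 3 IFITM genes are near-identical neighbors on chromosome 11, so the split of reads between them is uncertain. ISG20, an RNA-degrading exonuclease, had 4.47, 3.70 and 3.64 CPM in RAS libraries, against 0.361, 0.324 and 0.00 CPM in control libraries (log2 change 4.08 ± 0.60, adjusted p = 4.69e-07), and without control 3 the log2 change was 3.49. EPSTI1, a gene first known from epithelial and stromal cell contact, had 1.07, 2.36 and 3.38 CPM in RAS libraries, against 4.08, 6.85 and 4.33 CPM in control libraries (log2 change -1.16 ± 0.35, adjusted p = 0.00482), and its call was lost without control 2 (adjusted p = 0.0655). IFI6, a mitochondrial protein that delays apoptosis, was slightly higher (log2 change 0.28 ± 0.08, adjusted p = 0.00174), which the GC offset took to -0.078. The RNA sensors IFIH1 and DDX60 averaged 1.05 and 3.59 CPM in RAS cells, against 1.89 and 5.65 CPM in control cells, and neither passed the test (adjusted p = 0.174 and 0.0545).

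**Figure D2:**
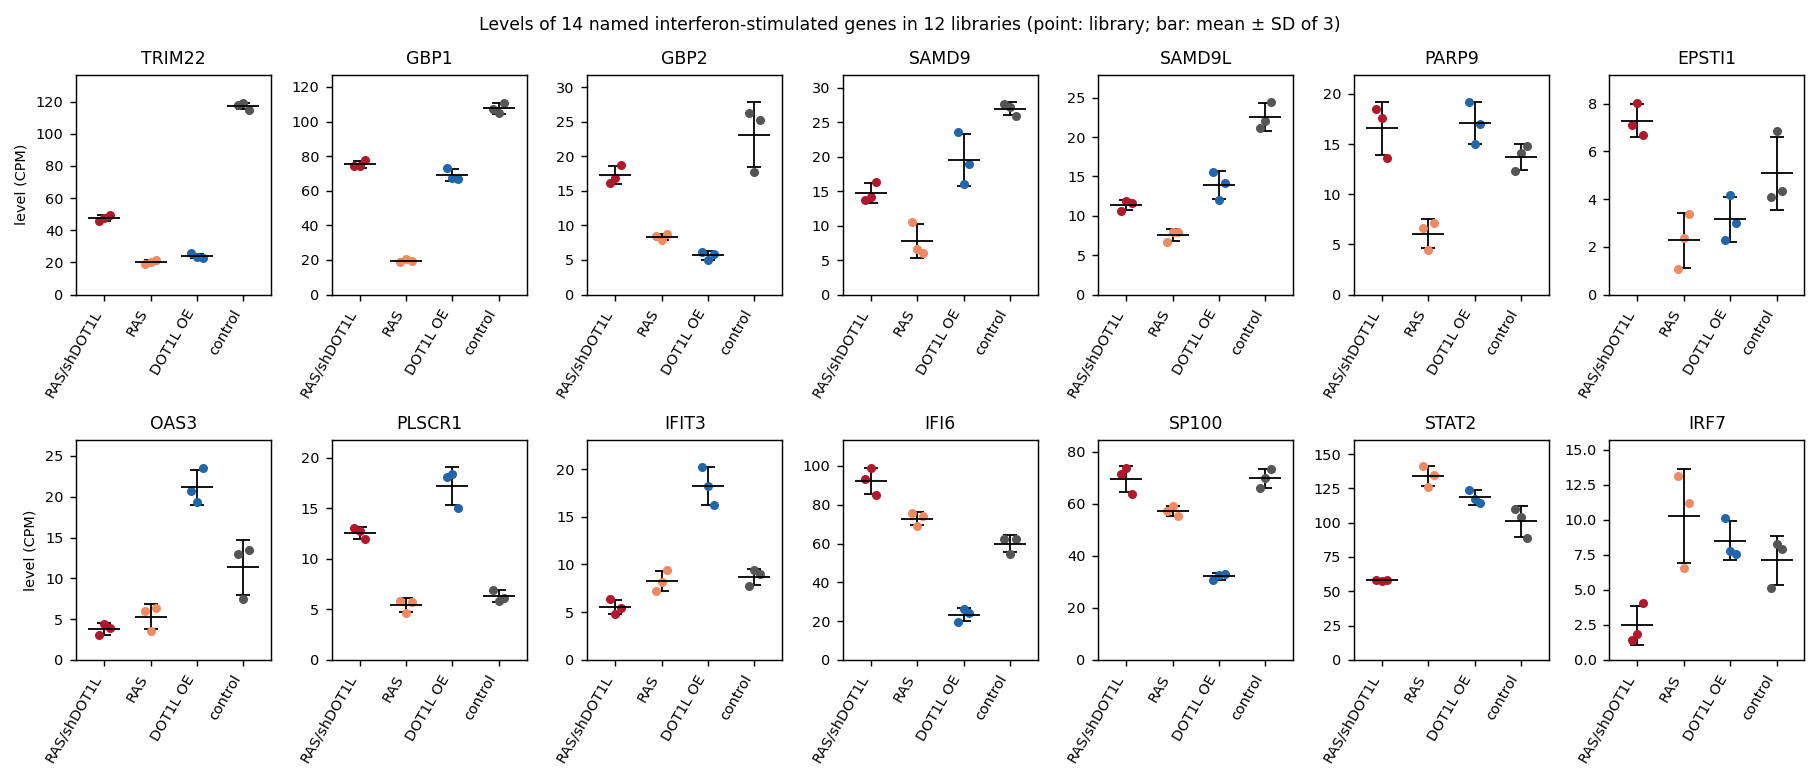
Level in CPM (vertical axes, each from 0) of 14 members in each library, with the mean and SD of the 3 libraries of a group (horizontal bars and whiskers). TRIM22 lies at 18.9 to 21.3 CPM in RAS and at 115 to 119 CPM in control libraries, and STAT2 lies at 57.5 to 58.1 CPM in RAS/shDOT1L and at 126 to 141 CPM in RAS libraries.

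The next comparison asks what the DOT1L hairpin changed in RAS cells. GBP1, GBP2, TRIM22, PARP9, EPSTI1 and PLSCR1 were higher in RAS/shDOT1L than in RAS cells, by 2.08-fold to 3.92-fold. The pathway's own factors went the other way: STAT2 was 2.29-fold and IRF7 4.12-fold lower. Of 32 members tested, 16 were higher and 6 lower, a share of 68.8%, while 52.7% of all 13398 genes tested were called. By direction, 50% of members and 26.3% of all genes were higher, and 18.8% of members and 26.4% of all genes were lower. At over 1.5-fold, where 17% of all genes were called, 7 members were higher (21.9%, against 8.34% of all genes) and 3 lower (9.38%, against 8.62%). Libraries did not overlap in 20 members (62.5%), 13 higher and 7 lower, and in 58.7% of all genes (28.6% higher and 30% lower). The median log2 change was 0.37 over the members and 0.03 over all genes. The 3 RAS libraries also serve as the tested side of the first comparison, so a gene whose RAS level happens to be low reads as lower there and as higher here.

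STAT2 had 58.1, 57.5 and 58.0 CPM in RAS/shDOT1L libraries, against 141, 126 and 135 CPM in RAS libraries. The groups were far apart (log2 change -1.20 ± 0.07, adjusted p = 1.57e-15). IRF7 had 1.44, 1.88 and 4.04 CPM in RAS/shDOT1L libraries, against 13.1, 6.55 and 11.2 CPM in RAS libraries (log2 change -2.04 ± 0.32, adjusted p = 1.70e-06). Its transcript is the richest in GC among the members (66.6%), and the GC offset left the log2 change at -1.59 (adjusted p = 9.18e-05). IRF9 had at most 0.0628 CPM in RAS/shDOT1L libraries and was not tested.

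Among the effectors, GBP1 had 74.4, 74.1 and 77.7 CPM in RAS/shDOT1L libraries, against 18.6, 20.5 and 19.4 CPM in RAS libraries (3.92-fold higher, log2 change 1.97 ± 0.10, adjusted p = 8.61e-18). GBP2 had 16.2, 16.8 and 18.7 CPM in RAS/shDOT1L libraries, against 8.53, 7.88 and 8.69 CPM in RAS libraries (2.08-fold higher, log2 change 1.06 ± 0.17, adjusted p = 4.12e-06). TRIM22 had 45.5, 47.9 and 49.3 CPM in RAS/shDOT1L libraries, against 18.9, 20.4 and 21.3 CPM in RAS libraries (2.39-fold higher, log2 change 1.25 ± 0.11, adjusted p = 2.10e-11). In none of the 3 genes did the groups overlap. GBP3 was higher too, at 16.9, 19.2 and 16.2 CPM in RAS/shDOT1L and 5.66, 2.12 and 5.11 CPM in RAS libraries (log2 change 2.04 ± 0.24, adjusted p = 8.29e-09).

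PARP9 had 18.5, 17.6 and 13.6 CPM in RAS/shDOT1L libraries, against 6.68, 4.42 and 7.09 CPM in RAS libraries (2.77-fold higher, log2 change 1.47 ± 0.20, adjusted p = 2.39e-07). EPSTI1 had 7.11, 8.03 and 6.69 CPM in RAS/shDOT1L libraries, against 1.07, 2.36 and 3.38 CPM in RAS libraries (3.25-fold higher, log2 change 1.70 ± 0.33, adjusted p = 6.16e-05). PLSCR1, a phospholipid scramblase with antiviral activity, had 13, 12.7 and 11.9 CPM in RAS/shDOT1L libraries, against 5.84, 4.61 and 5.75 CPM in RAS libraries (2.35-fold higher, log2 change 1.23 ± 0.21, adjusted p = 6.74e-06). All RAS/shDOT1L libraries lay above all RAS libraries in these 3 genes. DTX3L, the neighbor of PARP9, averaged 30.8 CPM in RAS/shDOT1L and 14.7 CPM in RAS cells (log2 change 1.08 ± 0.14, adjusted p = 5.31e-08).

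SAMD9 and SAMD9L were higher by less, with log2 changes of 0.94 ± 0.20 and 0.61 ± 0.20 (adjusted p = 0.000224 and 0.0104). With the GC offset SAMD9 kept its call at 0.54 (adjusted p = 0.0291) and SAMD9L lost it at 0.27 (adjusted p = 0.290). IFIT5 (log2 change 0.68 ± 0.18, adjusted p = 0.00212) lost its call likewise, at 0.30 with the offset (adjusted p = 0.186), as did SP100 (0.017) and PARP14 (0.11). PARP14 and IFITM3, whose libraries overlapped, also lost their calls without single libraries: PARP14 without RAS 2, RAS 3, RAS/shDOT1L 2 or RAS/shDOT1L 3, and IFITM3 without RAS 1, RAS 2, RAS/shDOT1L 1 or RAS/shDOT1L 2 (adjusted p 0.0722 to 0.313). UBE2L6 averaged 79.6 CPM in RAS/shDOT1L and 55.5 CPM in RAS cells (log2 change 0.54 ± 0.09, adjusted p = 2.64e-06), IFI6 averaged 92.4 CPM in RAS/shDOT1L and 72.9 CPM in RAS cells (log2 change 0.36 ± 0.08, adjusted p = 0.000201), and both were larger with the offset (log2 changes 0.68 and 0.57).

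OASL, ISG20, ISG15 and IFIT3 were the other members called lower. OASL had 0.00, 0.314 and 0.00 CPM in RAS/shDOT1L libraries, against 1.55, 1.70 and 1.79 CPM in RAS libraries (log2 change -3.87 ± 0.93, adjusted p = 0.000638). Only RAS/shDOT1L 2 held counts of OASL, and the fitted log2 change without it was -7.75, so its size is not fixed by these data. ISG20 had 0.522, 1.82 and 2.46 CPM in RAS/shDOT1L libraries, against 4.47, 3.70 and 3.64 CPM in RAS libraries (log2 change -1.27 ± 0.45, adjusted p = 0.0170), a call lost without RAS/shDOT1L 1 or without RAS 1 (adjusted p = 0.0804 and 0.0713). ISG15 was 1.29-fold lower (log2 change -0.37 ± 0.10, adjusted p = 0.00216), but its log2 change was 0.074 with the GC offset. IFIT3 was just past the threshold (log2 change -0.56 ± 0.24, adjusted p = 0.0474), and lost its call without RAS 2, RAS 3, RAS/shDOT1L 2 or RAS/shDOT1L 3 (adjusted p 0.0779 to 0.172). IFI27 had 4.11, 1.00 and 2.15 CPM in RAS/shDOT1L and 0.00, 0.364 and 1.09 CPM in RAS libraries, which overlapped, and its call (log2 change 2.34 ± 0.75, adjusted p = 0.00917) was lost without RAS/shDOT1L 1 (adjusted p = 0.123). Its log2 change was 1.72 without that library, 1.75 without RAS 1 and 3.69 without RAS 3.

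The third comparison sets DOT1L OE against control cells, both without the oncogene. These groups also differed in the selection drug, which cannot be told apart from the transgene. The members did not move one way: TRIM22, GBP2, IFI6 and SP100 were lower in DOT1L OE than in control cells by 2.16-fold to 4.86-fold, whereas PLSCR1, IFIT3 and OAS3 were higher by 1.87-fold to 2.74-fold. Of 35 members tested, 11 were higher and 11 lower, a share of 62.9%, while 59.9% of all 13660 genes tested were called. Each direction held 31.4% of members, against 29.9% of all genes higher and 29.9% lower. At over 1.5-fold, where 20.8% of all genes were called, 5 members were higher (14.3%, against 11.2% of all genes) and 5 lower (14.3%, against 9.58%). Libraries did not overlap in 21 members (60%), 11 higher and 10 lower, and in 64.1% of all genes (31.9% and 32.2%). The median log2 change was 0.19 over the members and 0.01 over all genes. These shares are near those of all genes, so the counts alone do not set the list apart.

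TRIM22 had 25.7, 23.6 and 22.9 CPM in DOT1L OE libraries, against 118, 119 and 115 CPM in control libraries (4.86-fold lower, log2 change -2.28 ± 0.07, adjusted p = 6.18e-23). GBP2 had 6.19, 4.95 and 5.85 CPM in DOT1L OE libraries, against 26.3, 17.7 and 25.3 CPM in control libraries (4.08-fold lower, log2 change -2.03 ± 0.15, adjusted p = 4.62e-13). Both genes were well apart between the groups. GBP1 had 73.4, 67.3 and 66.9 CPM in DOT1L OE libraries, against 107, 105 and 111 CPM in control libraries, a smaller step (1.55-fold lower, log2 change -0.63 ± 0.06, adjusted p = 1.96e-10), and GBP3 was also lower (log2 change -0.94 ± 0.12, adjusted p = 7.30e-08).

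IFI6 had 19.6, 26.4 and 24.1 CPM in DOT1L OE libraries, against 62.5, 54.8 and 62.4 CPM in control libraries (2.55-fold lower, log2 change -1.35 ± 0.10, adjusted p = 8.57e-14). SP100 had 30.6, 32.8 and 33.2 CPM in DOT1L OE libraries, against 66.0, 70.1 and 73.4 CPM in control libraries (2.16-fold lower, log2 change -1.11 ± 0.08, adjusted p = 6.37e-14). SAMD9L had 15.6, 12 and 14.1 CPM in DOT1L OE libraries, against 21.1, 22.0 and 24.5 CPM in control libraries (1.62-fold lower, log2 change -0.70 ± 0.12, adjusted p = 1.07e-05). No DOT1L OE library reached a control library in these 3 genes. SAMD9 was lower by less (log2 change -0.47 ± 0.12, adjusted p = 0.00101) and lost its call under the GC offset (-0.23 on the log2 scale, adjusted p = 0.0898). IFITM3 averaged 326 CPM in DOT1L OE and 420 CPM in control cells (log2 change -0.36 ± 0.05, adjusted p = 7.68e-08). ISG15 was lower with overlapping libraries (log2 change -0.28 ± 0.09, adjusted p = 0.00569), a call lost without control 1 (adjusted p = 0.0575).

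PLSCR1 had 18.1, 18.4 and 15 CPM in DOT1L OE libraries, against 6.92, 5.77 and 6.14 CPM in control libraries (2.74-fold higher, log2 change 1.45 ± 0.15, adjusted p = 4.44e-10). IFIT3 had 20.2, 18.2 and 16.2 CPM in DOT1L OE libraries, against 7.69, 9.38 and 9 CPM in control libraries (2.09-fold higher, log2 change 1.07 ± 0.14, adjusted p = 6.13e-08). OAS3 had 20.7, 19.3 and 23.5 CPM in DOT1L OE libraries, against 13, 7.50 and 13.5 CPM in control libraries (1.87-fold higher, log2 change 0.90 ± 0.15, adjusted p = 6.23e-06). All DOT1L OE libraries lay above all control libraries in each. IFIT3 shares 94 exon bases with LIPA on the opposite strand. IFIT2 likewise shares 65 with LIPA, and CMPK2 shares 351 with RSAD2. Since the strand setting of the counts is not stated, whether these overlaps added or removed counts cannot be told. The low-level genes ISG20 (2.33 CPM in DOT1L OE and 0.228 CPM in control cells, log2 change 3.34 ± 0.60, adjusted p = 1.42e-05) and CMPK2, a mitochondrial nucleotide kinase (1.21 and 0.102 CPM, log2 change 3.46 ± 0.77, adjusted p = 0.000239), were higher as well, and the size of the CMPK2 change was 5.21 without control 3, against 2.74 for ISG20. PARP14, IFITM1, HERC6, IFIT5 and PARP9 were higher by 1.24-fold to 1.61-fold. PARP9 lost its call without control 1, control 2, DOT1L OE 1 or DOT1L OE 3 (adjusted p 0.0534 to 0.186), and IFIT5 lost its own without control 3 or DOT1L OE 2 (adjusted p = 0.0771 and 0.0683).

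STAT2 had 124, 117 and 114 CPM in DOT1L OE libraries, against 110, 104 and 88.6 CPM in control libraries (1.18-fold higher, log2 change 0.24 ± 0.07, adjusted p = 0.00254), a call lost without control 3 (adjusted p = 0.0646). IRF7 averaged 8.49 and 7.10 CPM in DOT1L OE and control cells, which overlapped (adjusted p = 0.248). EPSTI1 averaged 3.15 CPM in DOT1L OE and 5.08 CPM in control cells (log2 change -0.68 ± 0.27, adjusted p = 0.0278), and its call was lost without control 2, DOT1L OE 1 or DOT1L OE 3 (adjusted p 0.0701 to 0.219). OAS1 had no counts in the 3 DOT1L OE libraries, which allows up to 3 counts over the group, and was not tested.

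**Figure D3:**
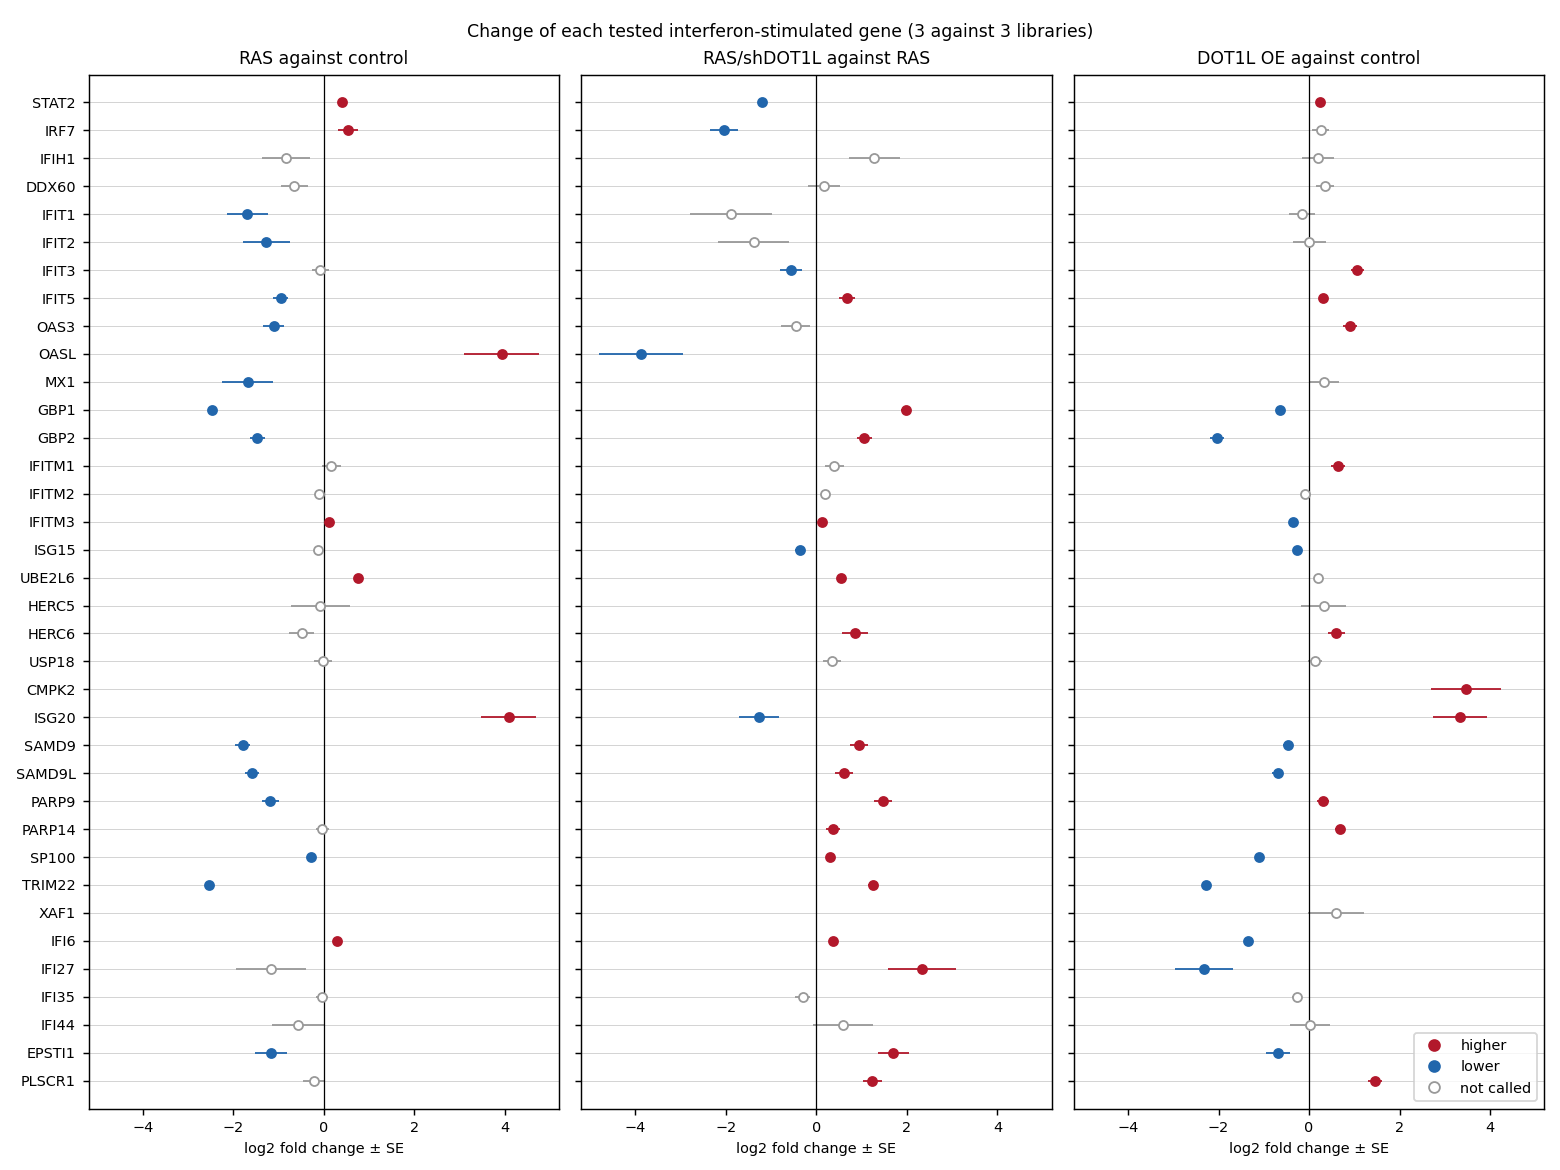
Log2 fold change with its SE (horizontal axes) of every member tested, in RAS against control, RAS/shDOT1L against RAS and DOT1L OE against control. Filled points passed the edgeR test, in red where higher and blue where lower, and open gray points did not; TRIM22 lies at -2.54, 1.25 and -2.28 in the 3 panels, in that order.

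Set against control, RAS/shDOT1L cells remained lower in several members, in a comparison that shares its libraries with those above. TRIM22 was 2.46-fold lower (log2 change -1.30 ± 0.07, adjusted p = 3.75e-15), SAMD9L 1.98-fold lower (log2 change -0.99 ± 0.14, adjusted p = 1.01e-06), and GBP1 1.42-fold lower (log2 change -0.51 ± 0.07, adjusted p = 2.07e-07). OAS3 was 2.99-fold lower, at 3.00, 4.39 and 3.91 CPM in RAS/shDOT1L libraries, against 13, 7.50 and 13.5 CPM in control libraries (adjusted p = 2.92e-06). STAT2 was 1.74-fold lower (log2 change -0.80 ± 0.08, adjusted p = 1.10e-09), PLSCR1 was 2.01-fold higher (log2 change 1.00 ± 0.19, adjusted p = 4.74e-05) and UBE2L6 2.45-fold higher (log2 change 1.29 ± 0.09, adjusted p = 1.98e-12). PARP9, EPSTI1 and SP100 did not differ detectably (log2 changes 0.27 ± 0.16, 0.52 ± 0.25 and 0.00 ± 0.08). For PARP9 and EPSTI1 this hung on the setting. With the GC offset both were called higher (log2 changes 0.39 and 0.64, adjusted p = 0.0383 and 0.0299). So was PARP9 without RAS/shDOT1L 3 (adjusted p = 0.0395) and EPSTI1 without control 2 (adjusted p = 0.0175). In all, 14 members were lower and 5 higher of 34 tested, 55.9%, while 55.5% of all 13519 genes were called (27.6% lower and 27.9% higher). At over 1.5-fold 8 were lower and 2 higher, against 9.68% and 9.44% of all genes, 19.1% in sum. Without control 2 or control 3 only 1 was higher. Libraries did not overlap in 20 members, 14 lower and 6 higher, and in 61.8% of all genes (31.5% and 30.4%).

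The levels of RAS and DOT1L OE cells were also tested against each other, since both groups had more DOT1L mRNA than control. These groups also differed in the selection drug, which cannot be told apart from the transgenes here. RAS cells were lower in 19 and higher in 8 of 35 members tested, 77.1%, while 65.6% of all 13648 genes were called. By direction, 54.3% of members and 33.2% of all genes were lower in RAS, and 22.9% of members and 32.3% of all genes were higher. At over 1.5-fold, where 30.3% of all genes were called, 11 members were lower and 2 higher (15.6% and 14.7% of all genes). Libraries did not overlap in 29 members, 19 lower and 10 higher, and in 69.8% of all genes (35.5% and 34.3%). These counts depended on single libraries: 5 members were called higher without RAS 1 or DOT1L OE 3 and 4 without DOT1L OE 2, and with any 1 library left out 13 to 17 were called lower. OAS3 was 4.03-fold (log2 change -2.01 ± 0.18, adjusted p = 1.04e-08), GBP1 3.56-fold (log2 change -1.83 ± 0.09, adjusted p = 5.39e-13), PLSCR1 3.19-fold and IFIT3 2.21-fold lower in RAS than in DOT1L OE cells. IFI6 was 3.10-fold higher in RAS cells (log2 change 1.63 ± 0.10, adjusted p = 2.20e-11) and SP100 1.77-fold higher. TRIM22 levels were close (20.2 CPM in RAS and 24.1 CPM in DOT1L OE cells, adjusted p = 0.0471), and the call was lost without RAS 1, RAS 2 or any 1 of the DOT1L OE libraries (adjusted p 0.0606 to 0.155). Scaled by library size alone, all genes had a median of -0.31 in place of -0.03, and the members split into 21 lower and 4 higher. With the GC offset they split into 18 lower and 4 higher. The shares of all genes called under these settings, or with a library left out, are not given here. These alternative counts therefore do not set the members apart from other genes.

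The rest of the pathway was read in the same fits, where the shares of all genes called higher and lower were 31.9% and 32% in RAS against control, 26.3% and 26.4% in RAS/shDOT1L against RAS, and 29.9% and 29.9% in DOT1L OE against control. Of 14 interferon genes, IFNB1 and 10 others had no counts in any library, IFNA8 had 1 count in control and IFNA1 had 2 counts in RAS/shDOT1L libraries, so none was tested. IFNE, an interferon of epithelia, had 0.00, 1.63 and 2.15 CPM in RAS/shDOT1L libraries, against 0.239, 0.182 and 0.511 CPM in RAS libraries, and none in DOT1L OE or control libraries. It lies inside MIR31HG on the same strand, and that gene had 11.1, 8.41 and 11.7 CPM in RAS/shDOT1L, 5.01, 6.18 and 6.13 CPM in RAS, 0.280 to 0.562 CPM in DOT1L OE and 0.352 to 0.620 CPM in control libraries. Interferon proteins were not measured here.

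Of 9 receptor and Janus kinase genes, 8 were tested. In RAS against control 2 were higher and 3 lower, in RAS/shDOT1L against RAS 2 and 1, and in DOT1L OE against control 2 and 3. The receptor-bound kinase TYK2 averaged 120 CPM in RAS and 83.9 CPM in control cells (log2 change 0.51 ± 0.07, adjusted p = 3.83e-08), and 74.6 CPM in RAS/shDOT1L against that level in RAS (log2 change -0.66 ± 0.07, adjusted p = 1.43e-09). JAK2 was lower in RAS than in control cells (4.30 and 10.2 CPM, log2 change -1.25 ± 0.21, adjusted p = 5.68e-06).

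IRF1, which activates many of the same promoters, had 84.4, 85.7 and 85.5 CPM in RAS libraries, against 38.5, 36.6 and 35.5 CPM in control libraries (log2 change 1.21 ± 0.08, adjusted p = 2.68e-15), and averaged 98.0 CPM in DOT1L OE against 36.8 CPM in control cells (log2 change 1.42 ± 0.07, adjusted p = 1.81e-17). IRF3, the factor that starts interferon transcription, averaged 101 CPM in RAS and 58.6 CPM in control cells (log2 change 0.78 ± 0.08, adjusted p = 9.26e-11), and 55.2 CPM in RAS/shDOT1L against RAS (log2 change -0.85 ± 0.08, adjusted p = 6.25e-11).

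Upstream sensing genes were mixed in RAS against control, with 4 higher and 2 lower of 8 tested. RIGI, the sensor of RNA ends, had 16.4, 13.6 and 11.9 CPM in RAS libraries, against 34.8, 34.2 and 39.3 CPM in control libraries (log2 change -1.37 ± 0.13, adjusted p = 4.22e-11), while its adaptor MAVS was higher (log2 change 0.49 ± 0.06, adjusted p = 3.93e-08). In DOT1L OE against control 5 of 8 were lower and none higher, RIGI among them (log2 change -0.92 ± 0.11, adjusted p = 1.46e-08), along with TBK1 and TANK. Of 12 inhibitors of the pathway, 4 were higher and 5 lower of 11 tested in RAS against control, 3 and 4 in RAS/shDOT1L against RAS, and 4 and 6 in DOT1L OE against control. SOCS3, which blocks Janus kinases, had 82.8, 99.5 and 98.7 CPM in RAS libraries, against 15, 16.9 and 14.2 CPM in control libraries (log2 change 2.61 ± 0.10, adjusted p = 8.30e-22). It was lower in RAS/shDOT1L than in RAS (log2 change -1.07 ± 0.09, adjusted p = 1.70e-12) and higher in DOT1L OE than in control cells (log2 change 1.77 ± 0.10, adjusted p = 4.82e-16).

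A further 45 interferon-stimulated genes outside the 44 were followed in the same fits. In RAS against control 12 were higher and 13 lower of 40 tested, near the 31.9% and 32% of all genes, with a median log2 change of -0.08. In RAS/shDOT1L against RAS 17 were higher and 6 lower of 40, against 26.3% and 26.4% of all genes, with a median of 0.18. In DOT1L OE against control 17 were higher and 11 lower of 41, against 29.9% of all genes in each direction, with a median of 0.18. SLFN11, which stalls translation in stressed cells, was lower in RAS than in control cells (4.00 and 18.4 CPM, log2 change -2.20 ± 0.18, adjusted p = 1.53e-12). ADAR, the RNA editor that marks cellular RNA as self, was lower in RAS/shDOT1L than in RAS cells (125 and 251 CPM, log2 change -0.99 ± 0.06, adjusted p = 7.43e-16), as was the coactivator HELZ2 (17.2 and 57.2 CPM, log2 change -1.72 ± 0.12, adjusted p = 2.51e-14).

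Transcript GC content moved with the RAS effect. Genes with a GC content of at most 38.4% had a median log2 change of -0.63 in RAS against control, and those of at least 61.9% one of 0.59. For RAS/shDOT1L against RAS these medians were 0.42 and -0.44, and for DOT1L OE against control -0.22 and 0.13. In RAS against control, the tested members had a median GC content of 44.2%, against 48.3% for all genes tested. When the trend of each library over GC content was taken out with an offset, the members' median log2 change was -0.35 in RAS against control, 0.31 in RAS/shDOT1L against RAS and 0.12 in DOT1L OE against control. GBP1 and TRIM22 were then at -2.13 and -2.15 in RAS against control, at 1.70 and 0.98 in RAS/shDOT1L against RAS, and at -0.62 and -2.23 in DOT1L OE against control, all past the test. The offset was read for the 44 members only. Changes of the genes outside them, such as the receptors, kinases, regulators and further interferon-stimulated genes above, were not checked with it. The part that GC content plays in how the libraries were made, as against in the cells, was not tested.

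**Figure D4:**
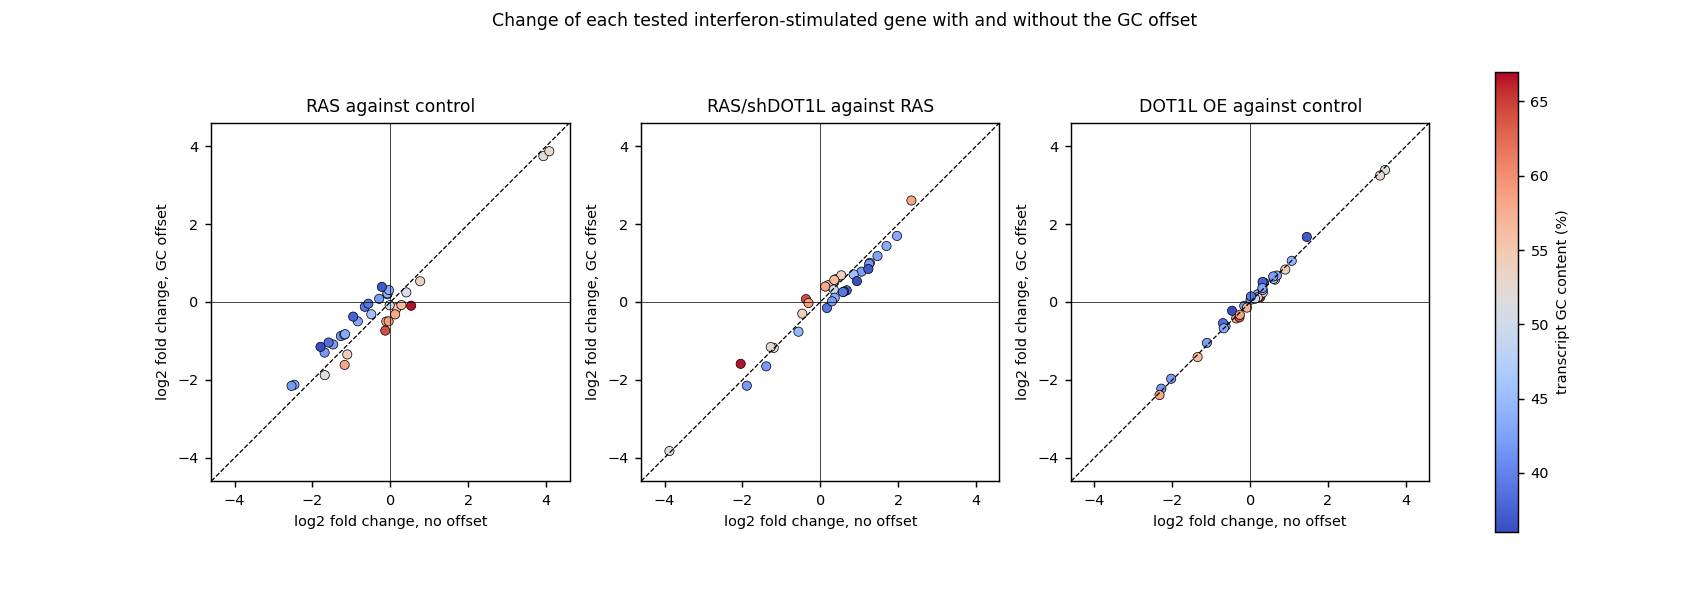
Log2 fold change of every member tested without (horizontal axes) and with (vertical axes) an offset for transcript GC content, colored by the GC content of the transcript; the dashed line marks equality. In RAS against control the members poor in GC (blue) lie above the line and those rich in GC (red) below it, while in DOT1L OE against control the points lie close to it.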

How the data were processed

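RNA enriched with oligo(dT) beads was sequenced in 12 libraries. The deposited tables hold the authors' STAR gene counts (STAR 2.6.1 and GRCh38 in the submitters' processing notes): whole numbers, 1 per Ensembl ID, with no normalization and no stated strand setting. CPM were derived from them after TMM scaling over the 12 libraries.

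Testing used edgeR 4.0.16 (R 4.3.3): filterByExpr, TMM and the two-sided quasi-likelihood F test on the 6 libraries of a comparison, with Benjamini-Hochberg adjustment over all genes tested and calls at adjusted p under 0.05; glmTreat gave the calls at over 1.5-fold. Log2 changes carry their SE. The code was tested on simulated data. No pair of libraries in a group was alike within sampling noise (chi-square over degrees of freedom 4.33 to 7.87). The study calls its replicates technical ones of 1 experiment, though its sequencing methods speak of biological ones, so p-values cover only the spread between libraries, which may be technical.

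The members and all lists were chosen with earlier results of these data known. Full values go, per comparison, to up to 8 members with the largest change past the test, at least 5 CPM in the higher group and no overlap, and to STAT2, IRF7 and IRF9; a few members outside that rule are described in brief after their values were seen. From the other lists at most 3 genes per list and comparison were named, by smallest p, plus the interferon genes. Some items are not reported here. GC content and lengths are those of GENCODE 44 canonical transcripts, and promoters those of RefSeq (GRCh38.p14). Alternatives were DESeq2 1.42.0 (its size factors, and its Wald test), scaling by library size alone, 2 other filters on low counts (1 count in all; 1 CPM in 3 libraries), limma-voom (limma 3.58.1), a joint fit of the 4 groups, a replicate block, a GC offset over 20 bins, and leaving out each library in turn.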

Additional observations from a re-analysis of the deposited data

How the results depend on the processing

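Total counts of members called, both directions together, stayed within 1.5 times under every alternative run, except at over 1.5-fold, where the DESeq2 Wald test gave 8 (against 13) in RAS against control and 5 (against 10) in RAS/shDOT1L against control, and limma-voom gave 6 in the last. These counts and those below are given without the shares of all genes called in the same fits. They show how far the calls depend on the setting, and do not compare the members with other genes. With each library left out, the members called numbered 18 to 20 in RAS against control, 19 to 22 in RAS/shDOT1L against RAS, 21 to 23 in DOT1L OE against control, 16 to 20 in RAS/shDOT1L against control and 19 to 23 (27 with all libraries; 4 to 8 higher and 13 to 17 lower, against 8 and 19) in RAS against DOT1L OE.

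Among members called with or without the GC offset, directions turned with it for IRF7 (-0.10), IFITM3 (-0.32), SP100 (0.081) and IFI6 (-0.078) in RAS against control, ISG15 (0.074) in RAS/shDOT1L against RAS, and ISG15 (-0.38) and TRIM22 (0.088) in RAS against DOT1L OE. Members called in neither fit also changed sign: IFIT3, IFITM1, HERC5, PARP14 and PLSCR1 in RAS against control, DDX60 in RAS/shDOT1L against RAS, IFITM2 and XAF1 in RAS/shDOT1L against control, and IRF7 and IFI35 in RAS against DOT1L OE. Scaled by library size alone, IFITM3 (-0.075, RAS against control) and STAT2 (-0.10, RAS against DOT1L OE) turned. The cause was not tested beyond the settings themselves.

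The replicate number as a block left 18, 19 and 22 members called in the 3 main comparisons. The deviations of same-numbered libraries were at most weakly correlated (correlations -0.042 to 0.063). Values this small cannot settle whether same-numbered libraries shared a culture or batch. Depth limits members under 1 CPM, whose fold changes rest on few counts.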

Other observations

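Antigen presentation, a part of the interferon response outside the 44 genes, was followed over 18 genes. In RAS against control 10 were higher and 1 lower of 15 tested, against 31.9% and 32% of all genes, with a median log2 change of 0.37. HLA-B, a class I heavy chain, averaged 331 CPM in RAS and 180 CPM in control cells (log2 change 0.88 ± 0.05, edgeR adjusted p = 3.93e-17), and HLA-E 533 CPM in RAS and 335 CPM in control cells. B2M, the light chain shared by these molecules, was the gene that was lower (845 CPM in RAS and 949 CPM in control cells, log2 change -0.17 ± 0.04, adjusted p = 0.000104). In RAS/shDOT1L against RAS 5 were higher and 6 lower of 15, against 26.3% and 26.4% of all genes: HLA-E was lower (295 and 533 CPM, log2 change -0.83 ± 0.05, adjusted p = 4.08e-16), as was the peptide-loading factor TAPBP, while B2M was higher (1250 and 845 CPM, log2 change 0.58 ± 0.04, adjusted p = 4.68e-14). In DOT1L OE against control 7 were higher and 5 lower of 15, against 29.9% of all genes in each direction, with B2M (537 and 949 CPM, log2 change -0.82 ± 0.04, adjusted p = 1.53e-17) and TAPBP lower and the peptide transporter TAP2 higher (log2 change 1.11 ± 0.13, adjusted p = 1.00e-08). The comparisons share the RAS and control libraries. Genes of this list were not checked with the GC offset, so the part of the GC trend in their changes was not tested.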
